A study of Mus musculus with 2 samples.

Results

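Checkpoint and costimulatory genes of the CD28 and PD-1 families were examined in leukocytes of bleomycin (BLM)-injured and naive mouse lung. The set held 10 genes that were chosen by name: the inhibitory receptors Pdcd1 (PD-1), Ctla4, Tigit, Lag3 and Havcr2 (TIM-3), the costimulatory receptors Cd28 and Icos, and the ligands Cd274 (PD-L1), Pdcd1lg2 (PD-L2) and Icosl. All 10 of them were listed in both count tables, out of 24785 genes listed in either. The rule used gene names alone.

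T cells need a signal through CD28 beside that of the antigen receptor to become fully activated. CTLA-4 competes with CD28 for the ligands CD80 and CD86, and it is constitutively expressed by regulatory T cells (Tregs), which restrain other T cells and depend on the transcription factor Foxp3. PD-1 dampens T cell signalling when it binds PD-L1 or PD-L2 on a neighbouring cell, ICOS is induced on activated T cells and binds ICOS ligand, TIGIT binds the nectin-like protein CD155 (Pvr), LAG-3 binds MHC class II, and TIM-3 is found on exhausted T cells and also on dendritic cells and macrophages.

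Lungs of wild-type mice of the strain C57BL/6N gave the living CD45+ cells that were sorted for single-cell RNA-seq with BD Rhapsody, a platform that tags each captured transcript with a unique molecular identifier (UMI). The BLM library held cells taken on day 15 after bleomycin, and the naive library held cells of mice that had no treatment. Each library was a pool of 3 mice with no map from cell to mouse, so there was 1 library per group, no test between groups was possible, and library preparation, sequencing run and group cannot be told apart. After filtering, 4391 BLM cells (21178260 UMIs, median 2380 per cell) and 3808 naive cells (16874692 UMIs, median 2699.5) were kept, and 22 cell barcodes occurred in both libraries. The 10 genes together took 11302 UMIs in the BLM library and 8806 in the naive library, and 62.5% and 64.2% of the cells held at least 1 of them.

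Cells were clustered without the 10 genes and without 19 other genes of the same pathways, so that none of them could shape a class, and each class was named from its markers. Among T-like cells, the sub-cluster named Treg-like held 75 BLM and 28 naive cells, of which 61 and 17 had a Foxp3 UMI. Other T-like classes were activated CD4-like (174 and 45 cells), naive CD4-like (160 and 227), CD8-like (268 and 243) and gamma delta-like cells (81 and 66). T-like cells as a whole and the 10 other classes compared had every one of their markers detected in both libraries. The migratory dendritic cell (DC)-like class rested on 69 BLM and only 15 naive cells. The class named for C1q or recruited macrophages was not alike in the libraries, since its 10 markers summed to 17384 CPM, the UMIs per 1000000 UMIs of the same cells, in BLM and 8165 CPM in naive cells and its median depth was 8227 against 4797 UMIs. Of the 10 leading genes of each cluster, 6 differed by 2-fold or more between the libraries in that class, 7 in Treg-like cells, 6 in alveolar macrophage-like cells and 6 in the small B-like cluster led by Igkc, so cells under these names were not the same in both libraries.

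Levels are given as CPM followed in parentheses by the exact Poisson 95% interval. Differences are log2 ratios of BLM over naive CPM within a class, with an exact 95% interval. These intervals cover counting error only and say nothing about the spread between mice. A difference is called higher or lower below when a gene had 20 or more UMIs over both libraries in the class and its levels differed by 2-fold or more. A share of cells with a UMI is set beside the share in a class that should lack the gene, because free RNA gives stray UMIs (NK-like cells, set beside the ligands, did hold Cd274 and Pdcd1lg2), and the share after thinning every cell to 1000 UMIs is given where depths differed.

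Apart from Havcr2 and Lag3, most receptor UMIs lay in lymphoid classes, and most UMIs of Havcr2, Cd274 and Icosl lay in myeloid classes. Myeloid classes also held most UMIs of all genes, with 14995959 of 21178260 in BLM and 10806184 of 16874692 in naive. Lymphoid classes held 79.2% of Pdcd1 UMIs in BLM and 90.7% in naive, 73.5% and 76.1% of Ctla4, 83.5% and 82.5% of Cd28, 83.9% and 84.6% of Icos, and 86.1% and 79.2% of Tigit. The rest was not all myeloid, since cycling clusters that were left unnamed belong to neither side. They held 178 of the 827 BLM and 84 of the 440 naive Ctla4 UMIs, where myeloid classes held 39 and 21. For Pdcd1 they held 46 of 341 and 1 of 140 UMIs, where myeloid classes held 18 and 12. Myeloid classes held 81.2% and 74.6% of Cd274 UMIs, 65.5% and 63.1% of Icosl and 88.0% and 89.3% of Havcr2. Pdcd1lg2 had 60.8% of its UMIs in myeloid classes in BLM and 44.3% in naive. By level, Cd274 was higher in myeloid than in lymphoid classes, with 141 against 89.4 CPM in BLM and 109 against 67.9 CPM in naive. Pdcd1lg2 was lower in myeloid classes, with 15.2 against 34.7 CPM and 9.07 against 24.5 CPM. Icosl was at 31.2 CPM in myeloid and 48.0 CPM in lymphoid classes in BLM, and at 65.1 and 64.0 CPM in naive. Lag3, a receptor that binds MHC class II, was nearly undetected, with 37 UMIs in the BLM library and 21 in the naive library.

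**Figure D1:**
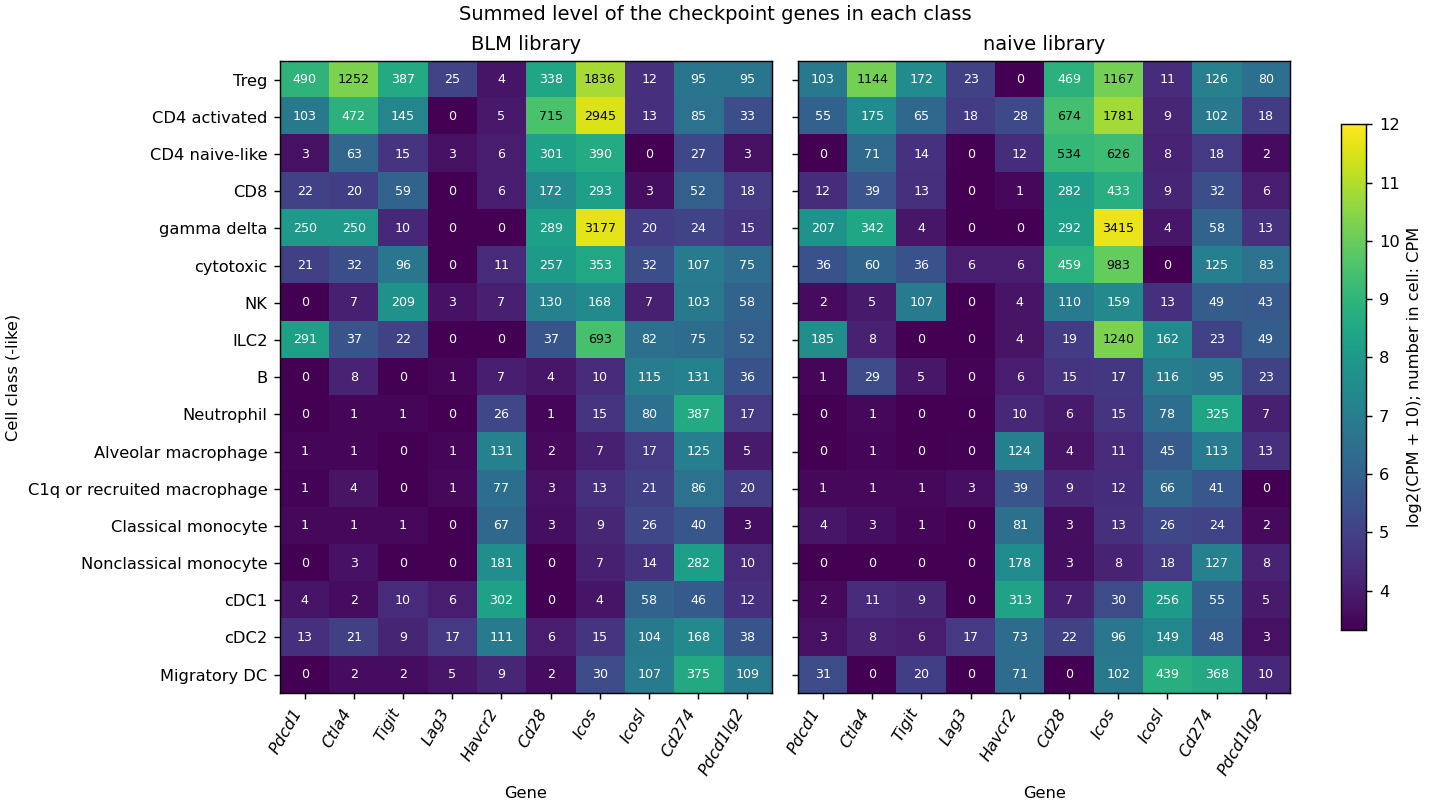
Level of each of the 10 genes in the T-like, NK-like, ILC2-like, B-like and myeloid classes of each library, with classes in rows and genes in columns. Colour gives log2(CPM + 10), and the number in each field is the CPM. Ctla4, Cd28 and Icos are highest in T-like classes. Havcr2 is highest in cDC1-like cells and low in neutrophil-like cells and in BLM migratory DC-like cells. Cd274 is spread over T-like and myeloid classes, reaching 387 CPM in BLM neutrophil-like cells.

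Over the 15 classes there were 150 pairs of a gene and a class. Of these, 73 had 20 or more UMIs and could be compared. In 14 of the 73 the level was higher in BLM, in 11 it was lower, and in 48 it stayed within 2-fold. The 19 other pathway genes gave 129 pairs with enough UMIs, of which 12 were higher and 12 lower. Of all genes measured in a class, from 1.44% to 12.8% were higher and from 4.61% to 10.9% lower, depending on the class. No share over the 15 classes together was computed, so these totals are not read as a result about either list.

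In the lymphoid classes the differences were mainly of inhibitory receptors. Among Treg-like cells 2 of 7 measured members were higher (Pdcd1, Tigit) and 0 lower, where 12.8% of all genes measured were higher and 8.06% lower. Activated CD4-like cells had 2 of 6 higher (Ctla4, Tigit) and 0 lower, against 8.62% and 6.11% of all genes. Naive CD4-like cells had 0 of 3 in either direction, against 1.85% higher and 6.63% lower. CD8-like cells had 1 of 6 higher (Tigit) and 0 lower, against 2.47% and 5.40%. None of the 4 measured members passed the fold in gamma delta-like cells, where 4.50% and 4.61% of genes did. NK-like cells had 1 of 5 higher (Cd274) and 0 lower, against 1.96% and 6.46%, and B-like cells had 0 of 7 higher and 2 lower (Ctla4, Cd28), against 1.44% and 4.94%. With so few members per class, a share of members above the share of all genes is a description of these libraries.

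In the myeloid classes the differences were mainly of ligands. Neutrophil-like cells had 2 of 5 members higher (Pdcd1lg2, Havcr2) and 0 lower, against 3.82% and 6.70% of all genes. Alveolar macrophage-like cells had 0 of 6 higher and 3 lower (Pdcd1lg2, Cd28, Icosl), against 6.25% and 10%. C1q or recruited macrophage-like cells had 2 of 6 higher (Cd274, Pdcd1lg2) and 2 lower (Cd28, Icosl), against 7.06% and 10.9%. Both Cd28 calls rested on few UMIs. Alveolar macrophage-like cells had 1.68 CPM from 11 UMIs in BLM and 3.78 CPM from 23 in naive. In C1q or recruited macrophage-like cells it was 3.23 CPM from 15 UMIs and 9.36 CPM from 7. That log2 ratio, -1.53 (-2.92 to 0.002), did not exclude 0. Neutrophil-like cells, set beside Cd28 as background, had 0.745 and 5.56 CPM. Classical monocyte-like cells had 0 of 4 in either direction, against 3.13% and 5.09%, and nonclassical monocyte-like cells had 1 of 2 higher (Cd274) and 0 lower, against 3.36% and 6.92%. Among DCs, cDC1-like cells had 0 of 3 higher and 1 lower (Icosl), against 6.73% and 8.96%, and cDC2-like cells had 2 of 5 higher (Cd274, Pdcd1lg2) and 1 lower (Icos), against 5.07% and 7.88%. Migratory DC-like cells had 1 of 4 higher (Pdcd1lg2) and 2 lower (Icos, Icosl), against 12.7% and 10.1%. The median log2 ratio of the measured members was -0.92 in alveolar macrophage-like cells, where the median of all genes was also below 0, at -0.21, and 0.60 in cDC2-like cells, where the median of all genes was 0.01.

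**Figure D2:**
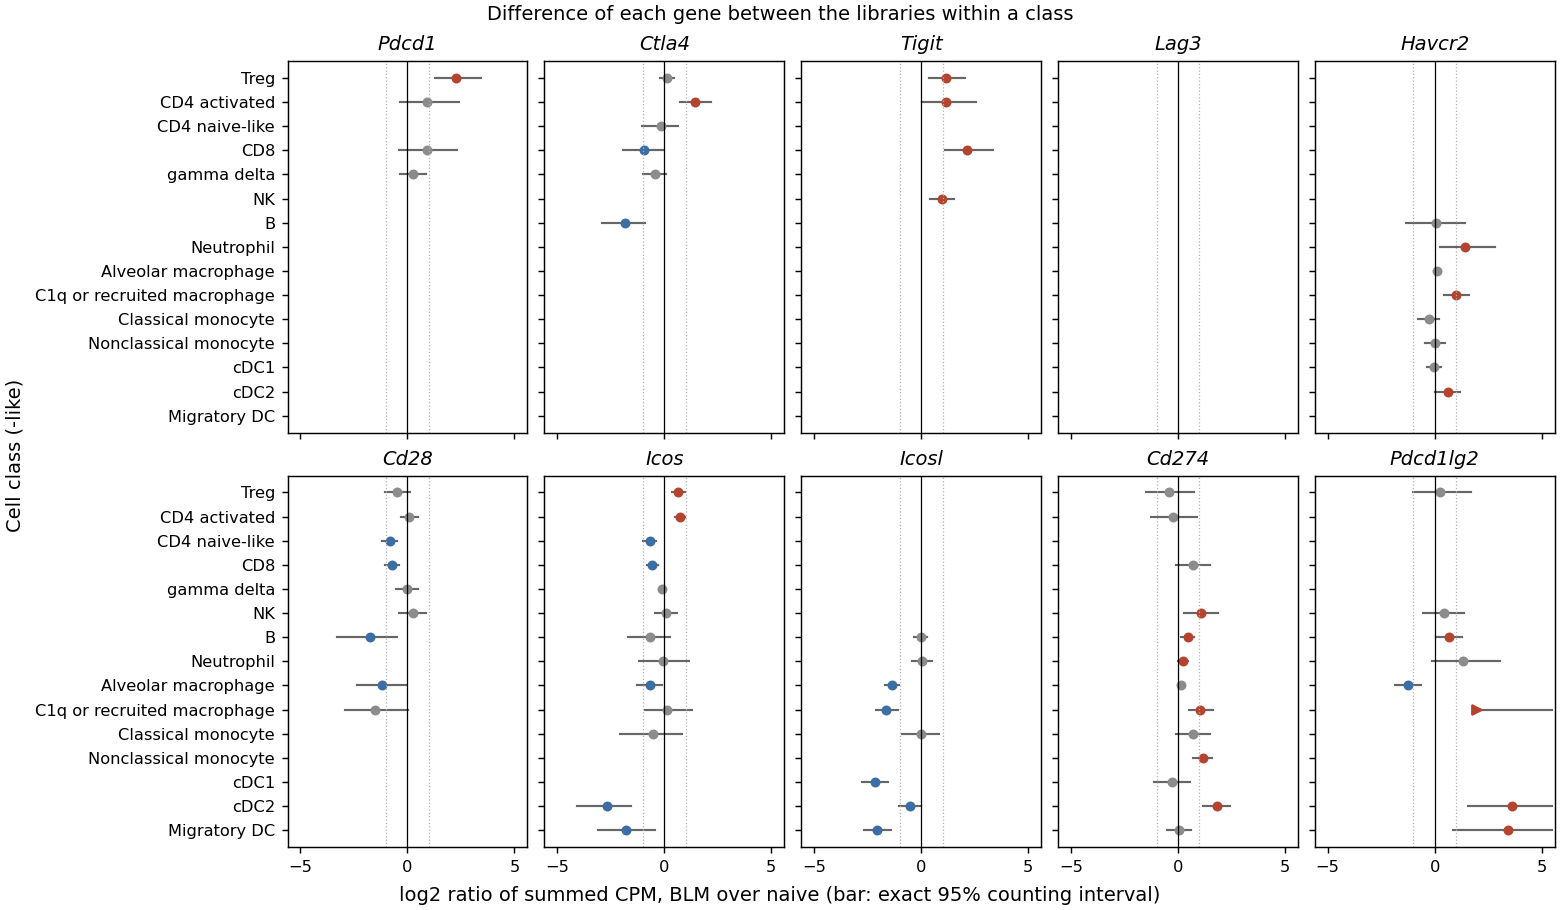
Log2 ratio of BLM over naive CPM for each member and class with enough UMIs, as points with exact 95% intervals for counting error, cut at the edge of the axis, and an arrowhead at the lower bound where the naive library held no UMI (red, interval above 0, blue, below 0, grey, including 0, dotted lines, 2-fold). Pdcd1 in Treg-like cells, Tigit in CD8-like cells and Pdcd1lg2 in cDC2-like cells lie to the right of 1, and Icosl in cDC1-like and migratory DC-like cells lies to the left of -1.

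PD-1 is the receptor that PD-L1 and PD-L2 share. Its gene Pdcd1 (chromosome 1, 94038305 to 94052553, minus strand, GRCm38) was at 489.9 CPM (406 to 586) in BLM Treg-like cells, from 119 UMIs, and at 103 CPM (47.1 to 195) in naive Treg-like cells, from 9 UMIs. The level was thus 4.76-fold higher in BLM, a log2 ratio of 2.25 (1.28 to 3.41). A Pdcd1 UMI was seen in 44 of 75 BLM Treg-like cells, or 58.7% (46.7% to 69.9%), and in 4 of 28 naive ones, or 14.3% (4.03% to 32.7%). The median depths of these cells were alike (2880 and 2812 UMIs), and the shares after thinning were 35.5% and 7.13%. In neutrophil-like cells, the class used as background, Pdcd1 was seen in 0 of 999 BLM cells (median 1329 UMIs) and in 0 of 453 naive cells (median 1580), counts of 0 that allow shares of cells with a UMI of up to 0.30% and 0.662%, taken as 3 cells of the total. T-like cells with a Foxp3 UMI are a definition that uses the T-like clusters but not the Treg-like sub-cluster. Over them Pdcd1 was at 412 CPM (76 BLM cells) and 73.5 CPM (22 naive cells), from 5 UMIs in the latter.

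Treg-like cells stood first for Pdcd1 in the BLM library but not in the naive library. In BLM they were followed by group 2 innate lymphoid cell (ILC2)-like cells at 291 CPM (207 to 397), gamma delta-like cells at 249.7 CPM (186 to 328), a cycling cluster led by Top2a at 118 CPM (86.1 to 158) and activated CD4-like cells at 103 CPM (73.8 to 139.5). The step from Treg-like to ILC2-like cells exceeded counting error, with a log2 ratio of 0.75 (0.22 to 1.31), whereas ILC2-like and gamma delta-like cells could not be ordered. In naive lung gamma delta-like cells came first with 207 CPM (152 to 276), then ILC2-like cells with 185 CPM (137 to 244), then Treg-like cells, and no neighbours in this order differed beyond counting error. Within gamma delta-like cells the libraries did not differ beyond counting error, with a log2 ratio of 0.27 (-0.33 to 0.88). In CD8-like cells Pdcd1 was seen in 12 of 268 BLM and 6 of 243 naive cells, or 4.48% and 2.47%.

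Ctla4, the inhibitory counterpart of Cd28, lay between Cd28 and Icos on chromosome 1 (60887000 to 60915832, plus strand, GRCm38), 113.64 kb from the former and 62.094 kb from the latter. Treg-like cells had the highest level in both libraries, with 1252 CPM (1115 to 1400.5) in BLM and 1144 CPM (931 to 1392) in naive, from 304 and 100 UMIs. These levels did not differ beyond counting error, with a log2 ratio of 0.13 (-0.20 to 0.47). A Ctla4 UMI was seen in 92.0% (83.4% to 97.0%) of BLM and 78.6% (59.0% to 91.7%) of naive Treg-like cells, against 0.10% and 0.221% of neutrophil-like cells.

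Activated CD4-like cells stood apart from Tregs in this respect. Their Ctla4 level was 472 CPM (407 to 544) in BLM, from 188 UMIs, and 175 CPM (106 to 274) in naive, from 19 UMIs. The level was 2.69-fold higher in BLM, a log2 ratio of 1.43 (0.74 to 2.19), and the share of cells with a UMI was 44.3% (36.7% to 52.0%) against 24.4% (12.9% to 39.5%), at median depths of 2105.5 and 2340 UMIs. This ratio fell under 2-fold when the members were allowed to shape the clusters (0.70), with at most 10% mitochondrial UMIs (0.72) and without integration of the libraries (0.46), so it depended on which cells the class took in. A Foxp3 UMI was held by 11 of the 174 BLM cells and 0 of the 45 naive cells of this class, and their part in the difference was not tested. Over all T-like cells without a Foxp3 UMI the log2 ratio of Ctla4 was 0.56 (0.30 to 0.83). In naive CD4-like cells the levels were 62.6 CPM (38.7 to 95.6) and 70.7 CPM (49.5 to 97.8), in gamma delta-like cells 249.7 CPM (186 to 328) and 342 CPM (269 to 428), and in CD8-like cells 20.4 CPM (11.6 to 33.1) and 39.4 CPM (26.0 to 57.3). Naive CD4-like and gamma delta-like cells thus did not differ beyond counting error, and CD8-like cells were 1.94-fold lower in BLM, short of 2-fold.

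B-like cells of the naive library also held Ctla4. A small B-like cluster led by Igkc had 104 CPM (78.4 to 136) in 87 naive cells, where 28 of 87 cells held a UMI, and 21.2 CPM (7.79 to 46.2) in 57 BLM cells, where 5 of 57 did. Over all B-like cells the levels were 29.4 CPM in naive and 8.23 CPM in BLM, a log2 ratio of -1.84 (-2.91 to -0.90). The larger cluster led by Ighd, with 579 of the BLM and 734 of the naive B-like cells, held 5 and 6 Ctla4 UMIs and as many Cd28 UMIs, at 4.75 and 3.94 CPM, so both lower calls in B-like cells came from the Igkc-led cluster. T cell transcripts were few in the Igkc-led cluster: the 8 T cell markers summed to 88.9 CPM in naive and 38.9 CPM in BLM cells, against 4067 and 4203 CPM in T-like cells. Of the 54 Ctla4 UMIs in the naive cluster, 4 lay in cells with a UMI of a Cd3 gene. The median depths of the cluster were 4976 UMIs in naive and 4717 in BLM. Cd28 followed the same course there, with 48.3 CPM (31.3 to 71.4) in naive cells, and 1 UMI in BLM cells.

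TIGIT shares the ligand CD155 with the activating receptor CD226. Tigit (chromosome 16, 43648867 to 43664146, minus strand, GRCm38) was highest in Treg-like cells of both libraries, with 387 CPM (313 to 474) in BLM and 172 CPM (96.1 to 283) in naive, a log2 ratio of 1.17 (0.38 to 2.07). In naive lung the step from Treg-like to NK-like cells, next in the order, was within counting error, with a log2 ratio of 0.69 (-0.24 to 1.52). In activated CD4-like cells the levels were 145 CPM (110.5 to 188) and 64.6 CPM (26.0 to 133), a log2 ratio of 1.17 (0.04 to 2.55). In CD8-like cells they were 58.5 CPM (42.9 to 78.1) from 46 UMIs and 13.1 CPM (6.01 to 24.9) from 9 UMIs, a log2 ratio of 2.16 (1.11 to 3.37). Tigit was thus higher in BLM in the Treg-like, activated CD4-like and CD8-like classes, and over all T-like cells it was 105 CPM against 24.6 CPM. NK-like cells, where TIGIT is also known as an inhibitory receptor, had 209 CPM (160.1 to 269) and 107 CPM (81.1 to 138), a log2 ratio of 0.97 (0.43 to 1.51) that stayed just inside 2-fold.

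The CD8-like class joined a cluster led by Fam241a with a cluster led by Ly6c2, which held 131 of the 268 BLM cells but 66 of the 243 naive cells. Tigit differed in the same direction within each of them. In the Ly6c2-led cluster it was 72.8 CPM (50.1 to 102) in BLM and 26.1 CPM (9.57 to 56.7) in naive, and in the Fam241a-led cluster 39.1 CPM (20.8 to 66.9) and 6.59 CPM (1.36 to 19.3), the last from 3 UMIs. The share of cells with a Tigit UMI was 13.8% (9.91% to 18.5%) in BLM and 3.29% (1.43% to 6.38%) in naive CD8-like cells at median depths of 2763 and 2699 UMIs, and 65.3% (53.5% to 76.0%) and 32.1% (15.9% to 52.4%) in Treg-like cells. In neutrophil-like cells it was 1 of 999 and 0 of 453 cells. Without integration of the libraries the log2 ratio of Tigit was 0.72 in Treg-like cells, of which only 9 naive ones remained, 0.58 in activated CD4-like cells and 1.95 in CD8-like cells, so the CD8-like difference alone of these stayed past 2-fold.

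**Figure D3:**
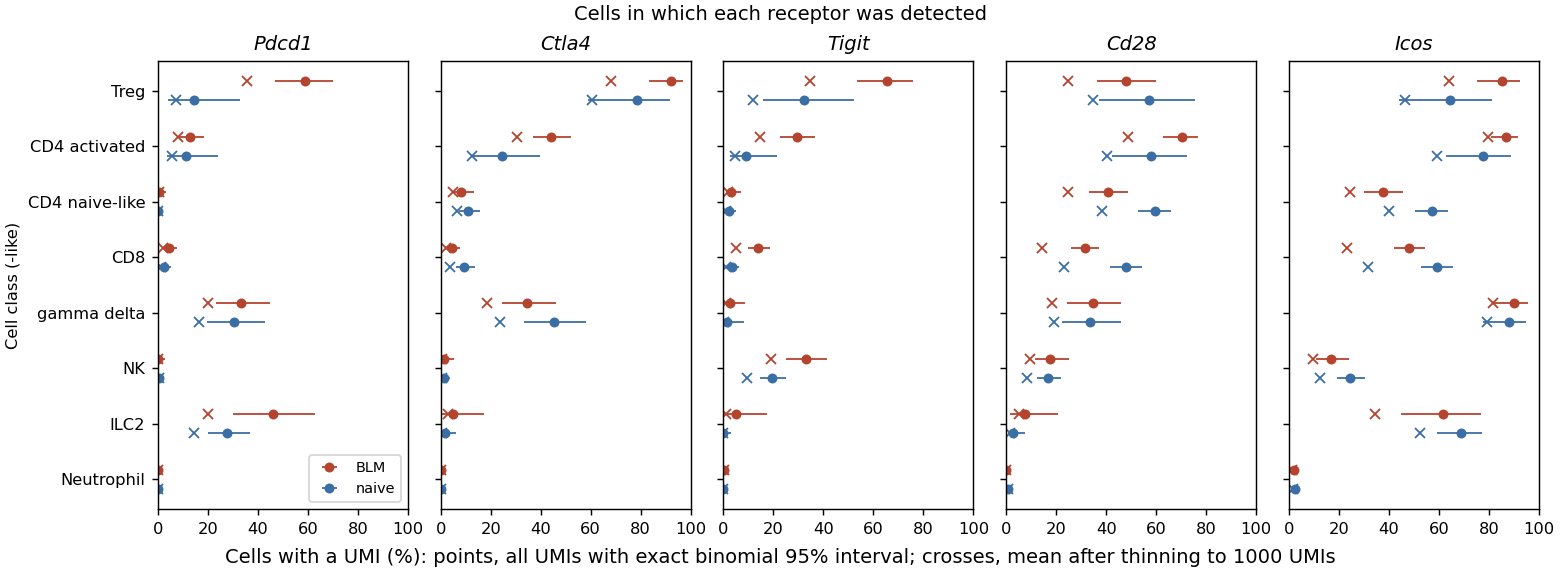
Share of cells with a UMI of Pdcd1, Ctla4, Tigit, Cd28 or Icos in 8 classes of each library, in percent, as points with exact binomial 95% intervals; crosses mark the share after thinning each cell to 1000 UMIs. In Treg-like cells Pdcd1 was seen in 58.7% of BLM and 14.3% of naive cells, and neutrophil-like cells stay near 0 for every receptor.

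Lag3 and Havcr2 held few UMIs in T-like cells. Lag3 (chromosome 6, 124904361 to 124911705, minus strand, GRCm38) had 7 UMIs in all 804 BLM T-like cells and 5 in all 687 naive ones, 6 and 2 of them in Treg-like cells. In no class did it reach 20 UMIs, and cDC2-like cells came closest with 8 UMIs in BLM and 11 in naive, or 17.0 CPM (7.34 to 33.5) and 17.1 CPM (8.52 to 30.6). At this depth no difference in Lag3 was detectable.

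Havcr2 (chromosome 11, 46454935 to 46481255, plus strand, GRCm38) was led by cDC1-like cells, a DC type specialised in presenting antigen to CD8 T cells. They had 302 CPM (255 to 356) in BLM and 313 CPM (269 to 363) in naive, a log2 ratio of -0.05 (-0.38 to 0.27). Nonclassical monocyte-like cells came next with 181 CPM (135 to 238) and 178 CPM (149 to 209.6), and the step between these classes was 0.74 (0.27 to 1.22) in BLM and 0.82 (0.49 to 1.15) in naive on the log2 scale. Alveolar macrophage-like cells had 131 CPM (123 to 140.4) and 124 CPM (115 to 133), and classical monocyte-like cells 66.6 CPM (49.7 to 87.3) and 81.2 CPM (65.6 to 99.3). None of these 4 classes differed between libraries by 2-fold. T-like cells held 11 and 11 Havcr2 UMIs, seen in 1.37% and 1.60% of cells, close to the 1.26% and 1.46% of B-like cells, the background class, at median depths of 2402 and 2511 UMIs for T-like and 1654 and 1957 for B-like cells.

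C1q or recruited macrophage-like cells held more Havcr2 in BLM, with 76.9 CPM (69.1 to 85.3) against 38.8 CPM (26.0 to 55.7) in naive, 1.98-fold and just inside the limit. Neutrophil-like cells were past it, with 26.1 CPM (18.2 to 36.3) from 35 UMIs in BLM and 9.73 CPM (3.91 to 20.1) from 7 UMIs in naive, a log2 ratio of 1.42 (0.23 to 2.84). A Havcr2 UMI was seen in 2.80% and 1.55% of neutrophil-like cells, against the 1.26% and 1.46% of B-like cells, at median depths of 1329 and 1580 UMIs.

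Among the costimulatory receptors, Cd28 (chromosome 1, 60716800 to 60773359, plus strand, GRCm38) was highest in activated CD4-like cells, with 715 CPM (634 to 803) in BLM and 674 CPM (528 to 847) in naive, although in naive lung the step to naive CD4-like cells was within counting error (log2 ratio 0.34, -0.06 to 0.71). Between the libraries it did not differ beyond counting error in activated CD4-like cells, with a log2 ratio of 0.09 (-0.29 to 0.48). Naive CD4-like and CD8-like cells held less of it in BLM, though within 2-fold. Naive CD4-like cells had 301 CPM (245 to 366) in BLM and 534 CPM (472 to 601) in naive, a log2 ratio of -0.83 (-1.17 to -0.49). CD8-like cells had 172 CPM (144 to 203) and 282 CPM (243 to 324), a log2 ratio of -0.71 (-1.04 to -0.39), where the median of all genes was -0.12. Treg-like cells had 338 CPM (268 to 419) and 469 CPM (337 to 636), and gamma delta-like cells 289 CPM (219.9 to 373) and 292 CPM (226 to 373), neither of them apart beyond counting error.

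Icos (chromosome 1, 60977927 to 61000320, plus strand, GRCm38) had the most UMIs of the 10 genes, 3402 in the BLM library and 2719 in the naive library. Gamma delta-like cells, T cells that recognise antigen with another receptor chain pair, were at 3177 CPM (2937 to 3431) in BLM and 3415 CPM (3176 to 3666) in naive and led the order in both. Activated CD4-like cells followed with 2945 CPM (2779 to 3118) and 1781 CPM (1539 to 2051), a log2 ratio of 0.73 (0.50 to 0.95). In BLM these classes could not be ordered (log2 ratio 0.11, -0.03 to 0.25), whereas in naive lung gamma delta-like cells were higher by 0.94 (0.71 to 1.17) on the log2 scale.

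Icos in Treg-like cells was 1836 CPM (1669.7 to 2015) in BLM and 1167 CPM (952 to 1417) in naive, a log2 ratio of 0.65 (0.34 to 0.98). The activated CD4-like and Treg-like classes thus held more Icos in BLM, in both cases by less than 2-fold, and the ratio in Treg-like cells was 0.18 without integration. Naive CD4-like cells went the other way with 390.3 CPM (326 to 463) and 626 CPM (559 to 699), as did CD8-like cells with 293 CPM (256 to 333) and 433 CPM (386 to 486) and ILC2-like cells with 693 CPM (559.5 to 849) and 1239.9 CPM (1109.5 to 1381). The ILC2-like class, not among the 15 compared, held 39 BLM and 115 naive cells, of which 9 and 27 had a Cd3 UMI. Those cells held 5 of its 93 BLM and 78 of its 329 naive Icos UMIs. In ILC2-like cells without a Cd3 UMI the levels were 827 and 1248 CPM. Icos UMIs were seen in 90.1% and 87.9% of gamma delta-like cells and in 1.90% and 2.43% of neutrophil-like cells, at median depths of 2407 and 3034.5 against 1329 and 1580 UMIs.

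In naive cDC2-like and migratory DC-like cells most Icos UMIs sat in cells that also held a Cd3 UMI, whereas in alveolar macrophage-like cells 4 of 45 did in the BLM library and 5 of 67 in the naive one. In cDC2-like cells Icos was 14.9 CPM (5.98 to 30.7) in BLM and 96.2 CPM (73.8 to 123) in naive, a log2 ratio of -2.69 (-4.07 to -1.57). Of the 62 naive UMIs, 56 lay in 5 cells with a Cd3 UMI, and 13 of the 14 naive Cd28 UMIs of this class lay in 4 such cells. In migratory DC-like cells 8 of the 10 naive Icos UMIs lay in 2 such cells. The 8 T cell markers summed to 199 CPM in naive and 87.2 CPM in BLM cDC2-like cells, and to 163 and 43.1 CPM in migratory DC-like cells, with 8 of 8 detected in both libraries of the former and 4 and 5 of 8 in BLM and naive cells of the latter. With cells holding a Cd3 UMI left out of all classes other than T-like, an alternative added after the data were seen, neither class kept 20 Icos UMIs.

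Single Treg-like cells of the BLM library carried several inhibitory receptors at once. A UMI of 2 or more of the 5 inhibitory receptors was found in 62 of 75 BLM Treg-like cells, or 82.7% (72.2% to 90.4%), and in 11 of 28 naive Treg-like cells, or 39.3% (21.5% to 59.4%). For 3 or more receptors the counts were 30 of 75 cells, or 40.0% (28.9% to 52.0%), and 2 of 28, or 7.14% (0.877% to 23.5%). After thinning to 1000 UMIs, 2 or more receptors were seen in 36 of 74 BLM cells, or 48.6%, and in 3 of 28 naive cells, or 10.7%. The thinned shares were lower in both libraries and in the same order. With Tregs taken instead as the T-like cells that held Foxp3, the shares were 69.7% (58.1% to 79.8%) in BLM and 31.8% (13.9% to 54.9%) in naive, and after thinning 34.7% (24.0% to 46.5%) and 22.7% (7.82% to 45.4%), with overlapping intervals.

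In the other T-like classes these shares were lower. Among activated CD4-like cells 2 or more receptors were seen in 38 of 174 BLM cells, or 21.8% (15.9% to 28.7%), and in 6 of 45 naive cells, or 13.3% (5.05% to 26.8%). Gamma delta-like cells had 9 of 81, or 11.1% (5.21% to 20%), and 11 of 66, or 16.7% (8.62% to 27.9%). CD8-like cells had 8 of 268 and 2 of 243. In NK-like cells the counts were 0 of 137 and 0 of 245, which allow shares of up to 2.19% and 1.22% by the same rule of 3 cells. Among BLM Treg-like cells, 31 of the 44 with a Pdcd1 UMI, or 70.5%, also held a Tigit UMI, where 65.3% of all of them did, and 41 of the 44, or 93.2%, held a Ctla4 UMI, where 92.0% did. Tigit and Ctla4 were thus about as common in cells with Pdcd1 as in the whole class.

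**Figure D4:**
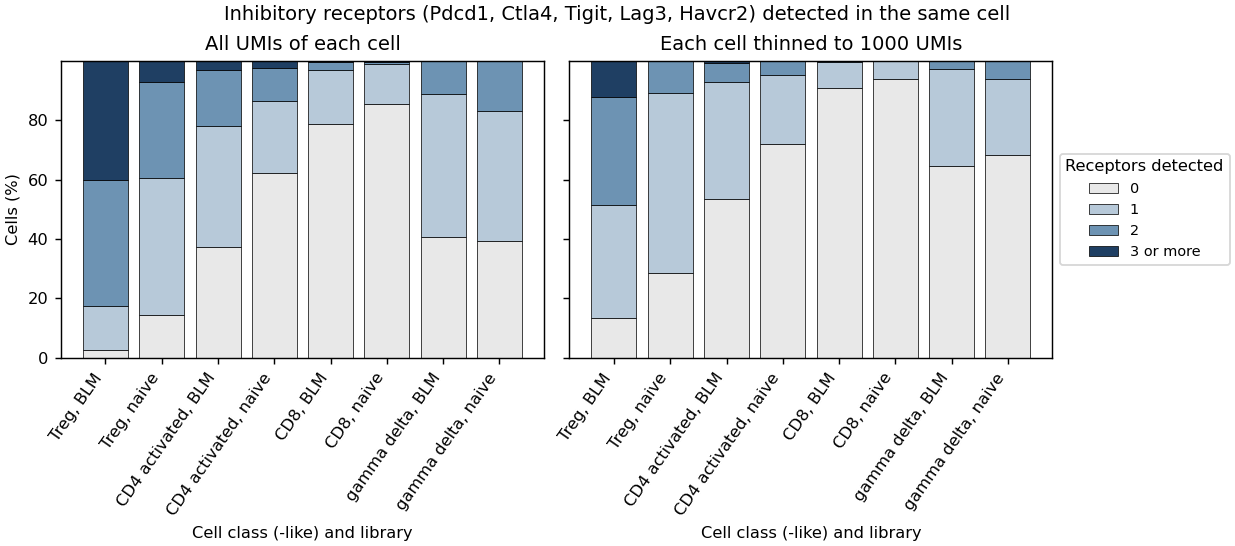
Share of cells, in percent, with a UMI of 0, 1, 2 or at least 3 of the 5 inhibitory receptors, as stacked bars per class and library, with all UMIs and after thinning each cell to 1000 UMIs. Cells with 2 or more receptors make up 82.7% of BLM and 39.3% of naive Treg-like cells with all UMIs, and 48.6% and 10.7% after thinning.

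The ligands of PD-1 are encoded side by side on chromosome 19, Cd274 at 29367455 to 29388095 and Pdcd1lg2 at 29410919 to 29471161, both on the plus strand of GRCm38 and 22.823 kb apart. PD-L1 is expressed broadly by leukocytes and is induced by interferons, whereas PD-L2 is largely restricted to DCs and macrophages. Their promoters are shown because UMIs of both ligands were called higher in BLM in the same macrophage and DC classes while Icosl was lower in several myeloid classes. The RefSeq promoter table on GRCm38.p6 held 7 of the 10 genes, and the 250 bases before the start that this table gives, which can differ from the gene bounds printed here, read as follows, 5′ to 3′ on the plus strand, with a match to an interferon regulatory factor (IRF) motif in capitals. They span chr19:29367188-29367437 for Cd274, chr19:29410669-29410918 for Pdcd1lg2 and chr10:78069118-78069367 for Icosl.
Cd274: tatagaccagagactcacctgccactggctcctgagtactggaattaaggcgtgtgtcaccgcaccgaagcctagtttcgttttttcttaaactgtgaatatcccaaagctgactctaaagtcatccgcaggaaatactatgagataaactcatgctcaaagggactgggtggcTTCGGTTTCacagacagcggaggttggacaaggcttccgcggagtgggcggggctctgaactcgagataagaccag
Pdcd1lg2: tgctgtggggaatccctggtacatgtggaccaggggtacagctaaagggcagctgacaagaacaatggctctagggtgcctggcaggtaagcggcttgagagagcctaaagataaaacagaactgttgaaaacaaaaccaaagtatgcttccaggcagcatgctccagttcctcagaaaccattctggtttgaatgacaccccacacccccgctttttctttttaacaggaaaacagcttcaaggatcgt
Icosl: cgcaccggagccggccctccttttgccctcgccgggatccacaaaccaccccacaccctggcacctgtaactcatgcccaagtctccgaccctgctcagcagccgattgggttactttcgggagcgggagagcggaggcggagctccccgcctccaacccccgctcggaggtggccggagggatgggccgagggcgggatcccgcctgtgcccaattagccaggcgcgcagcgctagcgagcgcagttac

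The motifs searched on both strands were the interferon gamma-activated site TTCNNNGAA, the IRF motif GAAANNGAA and the AP-1 motif TGANTCA, which matched 7.02%, 7.13% and 6.75% of 32851 promoters of this length. In Cd274 the IRF motif was found on the reverse strand as TTCGGTTTC, starting 76 bases before the start of transcription. It was the only match in the 3 promoters shown, so no matches overlapped there. No match was found in the windows of Pdcd1lg2, Icosl, Pdcd1 and Tigit. Ctla4 had an IRF match, TTCAGTTTC, 166 bases before its start, and Havcr2 had an AP-1 match, TGATTCA, 200 bases before its start. A match describes the letters and not a site that is used.

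Cd274 was highest in neutrophil-like, migratory DC-like and nonclassical monocyte-like cells. Neutrophil-like cells had 387 CPM (354 to 422) in BLM and 325 CPM (285 to 369.8) in naive, a log2 ratio of 0.25 (0.02 to 0.48), and migratory DC-like cells, mature DCs that travel to the lymph node, 375 CPM (319.6 to 436) and 368 CPM (257 to 509), a log2 ratio of 0.03 (-0.50 to 0.59). These neutrophil-like and migratory DC-like levels were thus within 2-fold between the libraries. A Cd274 UMI was seen in 30.9% (28.1% to 33.9%) of BLM and 31.3% (27.1% to 35.8%) of naive neutrophil-like cells, against 16.1% and 8.98% of NK-like cells, the class set beside the ligands, which held Cd274 itself and is therefore no measure of stray UMIs, at median depths of 1329 and 1580 against 2039 and 2136 UMIs.

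Cd274 was higher in BLM in 4 classes. In cDC2-like cells, which present antigen mainly to CD4 T cells, it was 168 CPM (133 to 209) in BLM and 48.1 CPM (32.7 to 68.3) in naive, a log2 ratio of 1.8 (1.19 to 2.45). In nonclassical monocyte-like cells it was 282 CPM (224 to 351) and 127 CPM (103 to 154), a log2 ratio of 1.15 (0.71 to 1.59), and 0.67 at a clustering resolution of 0.3, which joined them with classical monocyte-like cells. In C1q or recruited macrophage-like cells it was 85.5 CPM (77.3 to 94.4) and 41.4 CPM (28.2 to 58.8), a log2 ratio of 1.05 (0.52 to 1.62) that became 0.78 with doublets kept. Of these classes cDC2-like cells kept the 2-fold difference in every alternative run. NK-like cells were the fourth, with 103 CPM (69.4 to 147) and 48.8 CPM (32.1 to 71.0), a log2 ratio of 1.08 (0.28 to 1.88), and 0.97 without integration.

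The share of cells with a Cd274 UMI in cDC2-like cells was 39.0% (28.0% to 50.8%) in BLM and 17.3% (10.6% to 26.0%) in naive at median depths of 5803 and 5588 UMIs. Alveolar macrophage-like cells, the resident macrophages of the air space, held the most Cd274 UMIs in total (821 and 690) at levels of 125 CPM (117 to 134) and 113 CPM (105 to 122). B-like cells had 131 CPM (112 to 152) and 95.1 CPM (82.2 to 109), classical monocyte-like cells 39.7 CPM (27.0 to 56.3) and 24.2 CPM (16.1 to 34.9), and cDC1-like cells 45.6 CPM (28.6 to 69.0) and 55.2 CPM (37.5 to 78.3). Of these only the B-like difference exceeded counting error, with a log2 ratio of 0.46 (0.16 to 0.76). T-like cells held Cd274 at 62.0 CPM (51.8 to 73.7) in BLM and 49.8 CPM (40.1 to 61.2) in naive. After thinning, a Cd274 UMI was left in 5.65% and 4.44% of T-like cells, 7.20% and 4.23% of C1q or recruited macrophage-like cells and 11.5% and 3.23% of cDC2-like cells, against 8.03% and 4.12% of NK-like cells. In the BLM library cDC2-like cells thus lay above NK-like cells and the other classes named here below them.

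Pdcd1lg2 was rare in the DC-like classes of the naive library and differed most between the libraries in migratory DC-like and cDC2-like cells. Over all naive cells it had 221 UMIs (13.1 CPM), against 375 UMIs (17.7 CPM) over all BLM cells. Migratory DC-like cells had 109 CPM (80.3 to 144) in BLM, from 48 UMIs in 21 of 69 cells, and 10.2 CPM (0.258 to 56.9) in naive, from 1 UMI in 15 cells. The log2 ratio was 3.42 (0.87 to 8.75), or 10.7-fold, with a wide interval from the single naive UMI. It was 1.49 against a floor of 3 UMIs when cells with a Cd3 UMI were left out. In cDC2-like cells it was 38.3 CPM (22.7 to 60.5) from 18 UMIs and 3.10 CPM (0.376 to 11.2) from 2 UMIs, a log2 ratio of 3.62 (1.56 to 6.78). C1q or recruited macrophage-like cells had 19.8 CPM (16.0 to 24.3) from 92 UMIs in BLM and 0 UMIs in 141 naive cells, which allows a share of cells with a UMI of up to 2.13%, or 3 cells. With the naive count set to a floor of 3 UMIs the level was 4.94-fold higher in BLM, and the exact interval of the log2 ratio started at 1.98. Without integration, where the class took in other cells, the log2 ratio was 1.17.

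Alveolar macrophage-like cells differed in the other direction, with 5.5 CPM (3.85 to 7.61) from 36 UMIs in BLM and 13 CPM (10.3 to 16.2) from 79 UMIs in naive, a log2 ratio of -1.24 (-1.85 to -0.65). Without integration of the libraries no BLM cell was placed in this class, whereas 622 naive cells were, so its ratios rest on the integration. The share of cells with a Pdcd1lg2 UMI was 6.83% (4.77% to 9.41%) and 11.1% (8.68% to 13.9%) at median depths of 12469.5 and 9950 UMIs. In NK-like cells it was 10.9% and 8.16% at median depths of 2039 and 2136 UMIs. After thinning it was 4.36% and 3.61% in NK-like cells, 0.495% and 1.32% in alveolar macrophage-like cells, 1.65% and 0% in C1q or recruited macrophage-like cells, and 3.13% and 0.322% in cDC2-like cells. These macrophage-like and cDC2-like classes thus lay below NK-like cells. NK-like cells were however no measure of stray UMIs for Pdcd1lg2, with 58.3 and 43.4 CPM where classical monocyte-like cells had 2.56 and 1.73 CPM and stromal-like cells had no UMI, so whether the few UMIs of the macrophage-like and cDC2-like classes were stray was not settled. Migratory DC-like cells of the BLM library lay above NK-like cells, with 7.36% after thinning and 30.4% (19.9% to 42.7%) before.

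In the lymphoid classes with 20 or more UMIs Pdcd1lg2 stayed within 2-fold. Treg-like cells had 94.7 CPM (60 to 142) in BLM and 80.1 CPM (32.2 to 165) in naive, NK-like cells 58.3 CPM (34.0 to 93.4) and 43.4 CPM (27.8 to 64.5), and B-like cells 35.9 CPM (26.5 to 47.6) and 22.6 CPM (16.5 to 30.1). Of these the log2 ratio of B-like cells, 0.67 (0.06 to 1.29), lay above counting error, by less than 2-fold. In neutrophil-like cells Pdcd1lg2 was past 2-fold but on few UMIs, 23 in BLM and 5 in naive, with a log2 ratio of 1.30 (-0.13 to 3.05) that included 0. In single migratory DC-like cells of the BLM library, 17 of the 21 cells with a Pdcd1lg2 UMI, or 81.0%, also held a Cd274 UMI, where 66.7% of all cells of this class did.

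**Figure D5:**
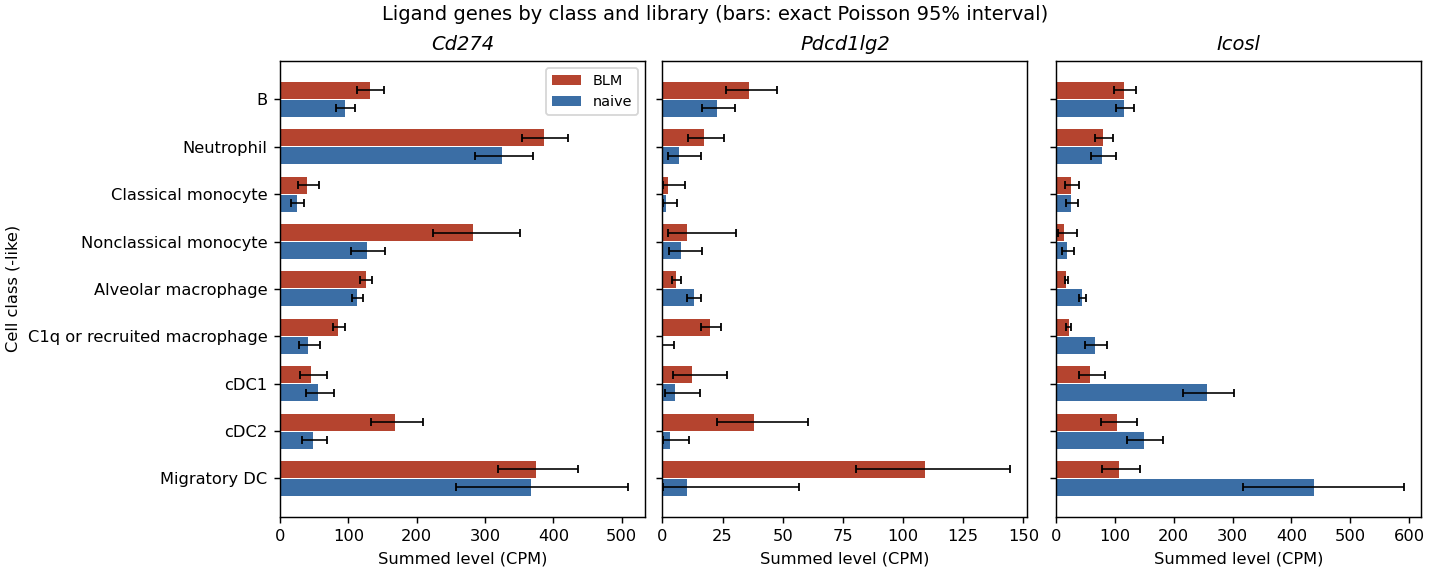
Level of Cd274, Pdcd1lg2 and Icosl in the B-like and myeloid classes of the BLM and naive libraries. Bars give CPM from 0 with exact Poisson 95% intervals that cover counting error only. T-like, NK-like and ILC2-like classes are not drawn. Pdcd1lg2 reaches 109 CPM in BLM migratory DC-like cells, and Icosl reaches 439 CPM in naive migratory DC-like cells against 107 CPM in BLM.

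Icosl, the ligand of ICOS (chromosome 10, 78069302 to 78083913, plus strand, GRCm38), was lower in BLM in DC-like and macrophage-like classes. In migratory DC-like cells it was 107 CPM (78.4 to 142) in BLM and 439 CPM (318 to 591) in naive, a log2 ratio of -2.04 (-2.67 to -1.41). In cDC1-like cells it was 58.0 CPM (38.5 to 83.8) and 256 CPM (216 to 302), a log2 ratio of -2.14 (-2.78 to -1.55). These levels were 4.11-fold and 4.42-fold lower in BLM. The share of cDC1-like cells with an Icosl UMI was 35.7% (23.4% to 49.6%) in BLM and 70.7% (59.6% to 80.3%) in naive, although the BLM cells were the deeper ones, with a median of 8294 against 6688.5 UMIs. After thinning the shares were 5.65% and 21.3%.

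Macrophage-like classes showed the same direction. Alveolar macrophage-like cells had 17.4 CPM (14.4 to 20.9) in BLM and 44.7 CPM (39.5 to 50.3) in naive, a log2 ratio of -1.36 (-1.69 to -1.04) in a class where the median of all genes was -0.21. C1q or recruited macrophage-like cells had 21.3 CPM (17.3 to 26.0) and 65.5 CPM (48.5 to 86.6), a log2 ratio of -1.62 (-2.13 to -1.09). In cDC2-like cells the levels were 104 CPM (77.1 to 138) and 149 CPM (121 to 182), within 2-fold. The lower calls of Icosl in the macrophage-like, cDC1-like and migratory DC-like classes held in every alternative run that placed cells of both libraries in the class.

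In B-like, neutrophil-like and classical monocyte-like cells Icosl stayed within 2-fold. B-like cells, which give ICOS ligand to helper T cells, had 115 CPM (97.8 to 135) in BLM and 116 CPM (102 to 132) in naive, a log2 ratio of -0.01 (-0.31 to 0.29). Within the B-like cells the cluster led by Ighd had 139 and 146 CPM, and the cluster led by Igkc 28.3 and 27.1 CPM. Neutrophil-like cells had 79.8 CPM (65.4 to 96.4) and 77.9 CPM (58.8 to 101), and classical monocyte-like cells 25.6 CPM (15.6 to 39.5) and 25.9 CPM (17.5 to 37.0). NK-like cells had a UMI in 1 of 137 and 6 of 245 cells.

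The receptors and their ligands are set side by side for a few classes. For PD-1, the receptor was 489.9 CPM in BLM and 103 CPM in naive Treg-like cells, while Cd274 was 168 and 48.1 CPM in cDC2-like cells and 375 and 368 CPM in migratory DC-like cells. For ICOS, the receptor was 2945 and 1781 CPM in activated CD4-like cells, while Icosl was 107 and 439 CPM in migratory DC-like cells and 115 and 116 CPM in B-like cells. Other classes went other ways, since Icos was lower in BLM in naive CD4-like, CD8-like and ILC2-like cells and Pdcd1lg2 was lower in alveolar macrophage-like cells. No test joined the receptor and ligand sides, and transcripts do not measure binding.

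CD80 and CD86, the ligands that CD28 and CTLA-4 compete for, were within 2-fold in most antigen-presenting classes. Cd80 was 288 CPM in BLM and 225 CPM in naive migratory DC-like cells, and 238 and 168 CPM in cDC2-like cells. Cd86 was 317 and 168 CPM in cDC2-like cells, a log2 ratio of 0.92 (0.55 to 1.29). It was past 2-fold in alveolar macrophage-like cells, with 63.8 CPM (57.8 to 70.2) and 12.8 CPM (10.1 to 16.0), a log2 ratio of 2.32 (1.96 to 2.68), and in nonclassical monocyte-like cells, with 115 and 53.3 CPM.

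On the TIGIT axis, Pvr was 159 CPM (124 to 201) in BLM and 582 CPM (441 to 754) in naive migratory DC-like cells, a log2 ratio of -1.87 (-2.40 to -1.34), and 28.9 CPM (24.9 to 33.3) and 6.57 CPM (4.69 to 8.95) in alveolar macrophage-like cells, a log2 ratio of 2.13 (1.64 to 2.67). The ligand thus differed in opposite directions in these classes. Cd226, the activating receptor for the same ligand, was 10.2 CPM in BLM and 29.2 CPM in naive CD8-like cells, where Tigit went the other way, and 97.9 and 40.5 CPM in gamma delta-like cells. Lgals9, one of the ligands described for TIM-3, was higher in alveolar macrophage-like cells (93.4 and 46.0 CPM), cDC2-like cells (63.8 and 31.0 CPM) and gamma delta-like cells, and lower in classical monocyte-like cells (67.8 and 141 CPM). Vtcn1 was not listed for the naive library.

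The genes whose levels ran most like each member were found over 39 sums of a class and a library, by Pearson correlation of log2(CPM + 10) among 11981 genes. These points share their libraries and the depth of their classes, so the values are a description with no p, and the named genes depend on the pseudocount, since 12 of the 27 remained at log2(CPM + 1). Cd28 was most like Lck (r = 0.97), Trac and Sh2d1a, and Icos was most like Lat (r = 0.96), Camk4 and Bcl11b, all genes of T cells. Ctla4 ran with Sit1 (r = 0.90), Cd5 and Slamf1, Pdcd1 with Acsbg1 (r = 0.92), Ccr4 and Cxcr6, and Tigit with Kdm2b (r = 0.86), Sytl2 and Gimap7. Havcr2 ran with Dna2 (r = 0.89), Mpeg1 and Slc8b1. The ligands had weaker neighbours, Cd274 with Il23a (r = 0.74), Pdcd1lg2 with Tnfrsf9 (r = 0.78) and Icosl with Myadm (r = 0.69). Among the members themselves Cd28 and Icos were most alike (r = 0.91), followed by Ctla4 and Icos (r = 0.85), and Icos and Havcr2 were the most opposed (r = -0.66).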

How the data were processed

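Living CD45+ lung cells were profiled as 1 BLM and 1 naive library, each a pool of 3 mice. For each library the authors deposited UMI counts as whole numbers with no normalisation. The BD Rhapsody WTA pipeline 1.8, run with GENCODE vM19 on GRCm38, made these deposited counts per the file headers, and the tables list the barcodes called as cells before the authors' own quality filter. A gene absent from a table was counted as 0. A minimum of 200 genes and a maximum of 15% mitochondrial UMIs left 4526 BLM and 3925 naive barcodes. Scrublet in scanpy 1.11.5 called 8 BLM (0.177%) and 61 naive barcodes (1.55%) by its automatic threshold, too few in BLM to be relied on, so the highest-scoring 3% per library were left out (135 and 117).

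Integration used Seurat 5.3.0 under R 4.3.3 (2000 variable genes, 30 dimensions, resolution 0.5), without the 10 genes and the 19 other pathway genes among the variable genes. T-like clusters, those where at least 50% of cells held a Cd3e UMI, were integrated again with 20 dimensions. A cluster took the class whose markers had the highest mean z score, unless another class had more markers among the 10 leading genes of the cluster. The class taken needed a mean z score of at least 0.3 and 3 detected markers. A cluster was also left unnamed when at least 3 of its leading genes were cycling genes. The same held when its score led narrowly and no marker of the class was a leading gene. The names were rebuilt here, so values may differ from the study's for that reason, and all class names mean cells like that class. The members, pathway list and markers were chosen with earlier results of these data known.

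UMIs were summed per class and library and given as CPM. Intervals were computed with scipy 1.17.1: exact Poisson for levels, Clopper-Pearson for shares and the exact conditional interval for ratios, all at 95% and for counting error only. With 1 library per group no test was run and no p-value is given. A count of 0 was set to a floor of 3 UMIs, and beside a share of 0 the limit given is 3 cells of the total, for cells with a UMI and not for cells that express the gene. Comparisons covered classes of at least 50 cells in each library. Treg-like, activated CD4-like (45 naive cells) and migratory DC-like cells were also compared, with fewer naive cells. The text always names the 10 members, gives pathway genes by count and by value where a member is their partner, and names the genes most like each member with 100 or more UMIs. The code for ratios and intervals was tested on simulated data. Gene positions are from GENCODE vM21 on GRCm38.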

Additional observations from a re-analysis of the deposited data

Results flagged for a closer look

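The differences of Pdcd1lg2 and Ctla4 ran in opposite directions in different classes. On the log2 scale of BLM over naive, Pdcd1lg2 was higher in BLM in cDC2-like cells (3.62), migratory DC-like cells (3.42) and C1q or recruited macrophage-like cells (2.30, against a floor of 3 UMIs in naive), and lower in alveolar macrophage-like cells (-1.24). Apart from the migratory DC-like cells of the BLM library, the shares of these cells with a UMI lay below that of NK-like cells after thinning, and whether their UMIs were stray was not settled. Ctla4 was higher in activated CD4-like cells (1.43) and lower in B-like cells (-1.84), there in the small Igkc-led cluster. With 1 library per group the difference between classes was not tested.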

How the results depend on the processing

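No paired analysis was possible because each group was 1 library, and no replicate could be left out. Of the 73 pairs of a member and a class, 14 were higher and 11 lower in BLM, and the shares of all genes are given by class above. Without a minimum on UMIs these were 26 and 32 of 141 pairs. That setting takes in pairs with very few UMIs, and no share of all genes was computed for it, so these counts cannot be read as differences. With cells holding a Cd3 UMI left out of the classes other than T-like, chosen after seeing the data, 7 were lower. The other alternatives stayed within 1.5 times of the counts (10% mitochondrial UMIs, doublets kept, resolution 0.3 and 1.0, no integration, members allowed among the variable genes, CPM without the most abundant genes). The share of Treg-like cells with 2 or more inhibitory receptors was 48.6% in BLM and 10.7% in naive after thinning to 1000 UMIs, and 69.7% and 31.8% when Tregs were defined by a Foxp3 UMI instead, or 34.7% and 22.7% with both changes, where the intervals overlapped. Of the 27 genes most like a member, 12 were shared with those at log2(CPM + 1). No ratio with an interval that excluded 0 changed sign under the alternatives run. Doublets kept brought Icos to -0.43 in cDC2-like cells and to -0.66 in migratory DC-like cells. Without integration 4 of 33 such ratios moved by more than their counting error. At these depths Lag3, and any member with under 20 UMIs in a class, could not be compared.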

Other observations

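The cycling cluster led by Top2a, which its markers left unnamed, held inhibitory receptor transcripts in both libraries. Its Ctla4 level was 459 CPM (393 to 532) in 48 BLM cells and 230.6 CPM (184 to 286) in 31 naive cells, and its Pdcd1 level was 118 CPM (86.1 to 158) from 45 UMIs and 2.75 CPM (0.0695 to 15.3) from 1 UMI. A Foxp3 UMI was held by 13 of the 48 BLM cells and 3 of the 31 naive cells of this cluster, and its part in these differences was not tested. Icos in the same cluster was 952 CPM (856 to 1055) and 574 CPM (499 to 657). A second cycling cluster, led by Birc5, held Havcr2 at 115 CPM (99.2 to 133) in 99 BLM cells and 137 CPM (113 to 164) in 68 naive cells, and Icosl at 29.4 CPM (21.6 to 39.1) and 113 CPM (91.9 to 139).

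In a T-like cluster with NK receptor genes, named cytotoxic-like, Icos was 353 CPM (243 to 496) in 32 BLM cells and 983 CPM (839 to 1145) in 63 naive cells, and Cd28 was 257 CPM (164 to 382) and 459 CPM (362 to 573).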
